A study of Mus musculus with 4 samples.

Results

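Vascular guidance genes encode the cues and receptors that first became known for steering growing axons and that also steer blood vessels. The 46 genes described here are 8 ephrins, 11 Eph receptors, 7 class 3 semaphorins, 8 plexins, 3 Slits, 3 Robo receptors, 2 netrins, and the netrin receptors Unc5a, Unc5b, Unc5c and Dcc. They were chosen by name from these families, not all of which are complete. Every probe whose RefSeq accession belongs to one of the 46 genes was read. All 46 had a probe, out of 20656 named genes on the array. Of the 46, 39 were bright enough to be tested.

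The measurements came from 4 one-colour Agilent arrays, 2 of RFP-positive and 2 of RFP-negative cells. Mouse EB5 embryonic stem cells carrying a red fluorescent (RFP) reporter for Hoxb6, a posterior homeobox gene, gave rise to both fractions. Differentiation lasted 6 days over a feeder layer of OP9 stroma, which derives from mouse bone marrow, and all cells were sorted as positive for Flk-1. Flk-1 is the VEGF receptor encoded by Kdr and marks mesoderm with blood and vessel potential. The RFP-positive fraction carried reporter signal and the RFP-negative fraction did not, and the comparison asks how the 2 differ. The labels do not say whether the 2 arrays of a fraction came from separate cultures, so that p-values measure only the spread between these samples, which may be technical.

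In these pathways a membrane-bound or secreted ligand meets a receptor on a neighbouring cell, and the receptor then remodels the cytoskeleton of the cell that carries it. Ephrin-B2 and its receptor EphB4 are the classical pair of arterial and venous endothelium. Class 3 semaphorins act through plexins, mostly together with a neuropilin. Slits act through Robo receptors, and netrins through Dcc and the Unc5 receptors.

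Every level below is the log2 of the processed signal relative to the array's 75th percentile, and every difference is RFP-positive minus RFP-negative on that scale. An SE is that of the limma fit, a mean is given with its SD over the 2 arrays, and an adjusted p is limma's, adjusted by Benjamini-Hochberg across the 13430 genes tested. A level depends on the probe as well as on the transcript, so levels of different genes are not set against each other. "Well above background" is the scanner's own mark for a spot.

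Between 55.2% and 59.3% of the spots that were not controls were well above background on an array, and no spot was saturated. Hoxb6 itself was not detected above background by its probe on any of the 4 arrays and so offered no check of the labels. Kdr, on which both fractions were sorted, was at 4.39 ± 0.03 in RFP-positive and 4.25 ± 0.11 in RFP-negative cells (n = 2 each). RFP-positive replicate 1 correlated more closely with RFP-negative replicate 1 (Pearson r = 0.982 across genes) than with RFP-positive replicate 2 (0.964), and genes are not independent replicates. Differences of the genes that matter most are therefore given beside their values on all arrays, and where 1 array decides the size this is said.

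Of the 39 guidance genes tested, 12 (30.8%) had both RFP-positive arrays above both RFP-negative arrays, and 6 (15.4%) had both below. Over all genes tested these shares were 18.8% and 21.6%, so that 46.2% of the guidance genes had arrays that did not overlap, beside 40.3% of all genes. With quantile normalization the split was 12 higher and 3 lower, where all genes gave 20.4% and 20.1%. With scaling to the median it was 15 higher and 4 lower, where all genes gave 24.4% and 16.6%. With the mean of a gene's probes it was 11 higher and 8 lower, where all genes gave 17.3% and 21.7%. Without RFP-negative replicate 2 it was 15 higher and 13 lower, where all genes gave 30.3% and 37.3%. By the values reported, the 12 were Epha3, Epha7, Ephb4, Ephb6, Sema3f, Plxna2, Plxna4, Plxnc1, Plxnd1, Slit2, Slit3 and Robo1. The 6 were Efnb2, Epha1, Epha5, Ephb1, Ephb3 and Plxna1.

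The median difference of the 39 genes was 0.19, and that of all genes tested was -0.05. Against the RFP-negative mean, RFP-positive replicate 1 alone gave a median of 0.21 and replicate 2 alone one of 0.25. Set against a single RFP-negative array, the RFP-positive mean gave 0.10 for replicate 1 and 0.23 for replicate 2. In all, 25 genes (64.1%) had a difference above 0 and 14 one below 0, where 45.2% of all genes had one above 0.

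No guidance gene passed an adjusted p of 0.05 in limma's test, where 0% of all genes passed, and their adjusted p ran from 0.727 to 0.983. At an unadjusted limma p under 0.05 there were 2, Plxnc1 and Sema3f, or 5.13%, where all genes gave 6.49%. In 0 of the 39 did every pairing of an RFP-positive with an RFP-negative array differ by 2-fold or more in 1 direction, where 1.36% of all genes did (0.469% higher and 0.894% lower). The difference exceeded the gap between the 2 arrays of either fraction in 9 genes (23.1%), a share close to the 24.7% of all genes.

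**Figure D1:**
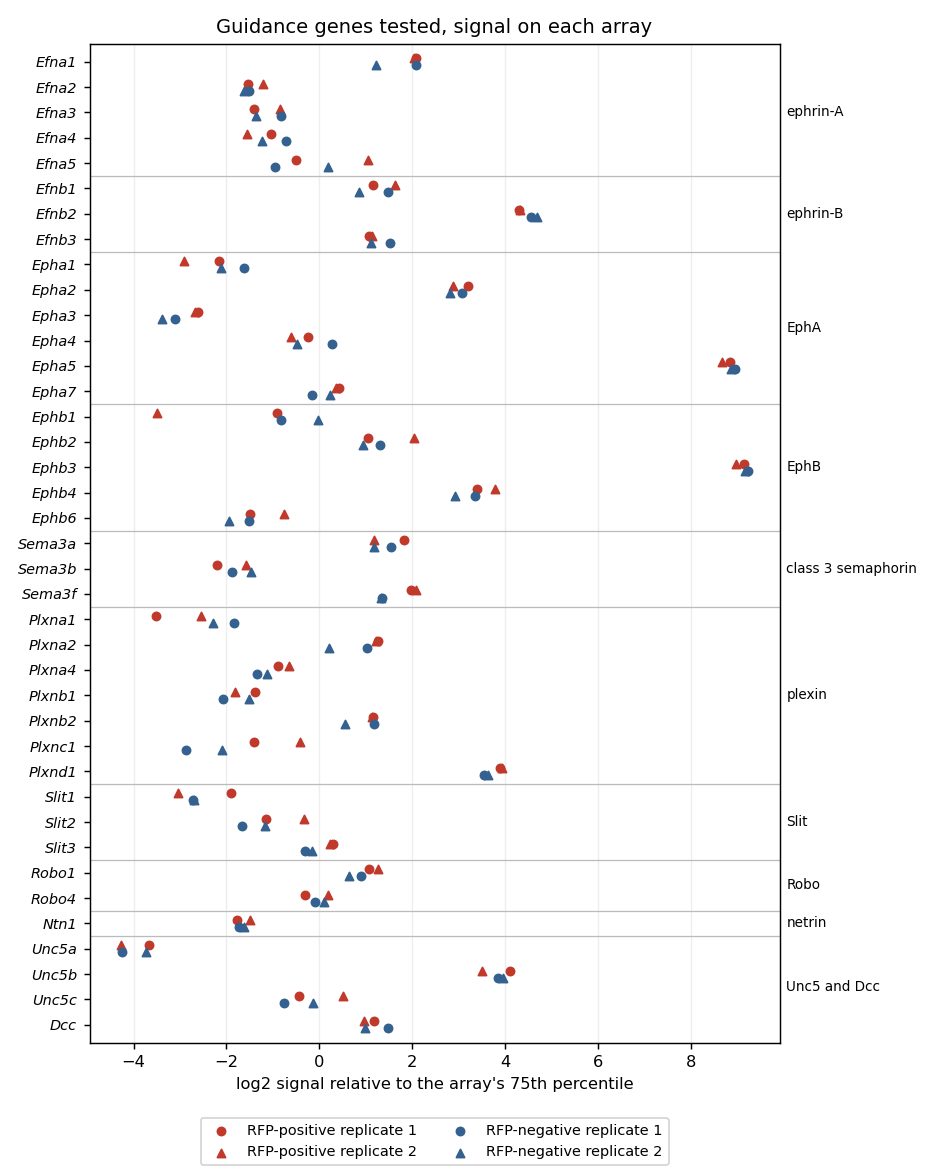
Log2 signal relative to the array's 75th percentile (horizontal axis) of the 39 guidance genes tested, 1 point per array, RFP-positive in red above RFP-negative in blue, circles for replicate 1 and triangles for replicate 2. The red points lie to the right of both blue points for 12 genes and to the left of both for 6.

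Among the ephrin-B ligands, transmembrane proteins that can also signal into the cell that bears them, only Efnb2 had arrays that did not overlap. Efnb2, which marks arterial endothelium, was at 4.29 and 4.31 on the RFP-positive arrays, against 4.56 and 4.69 on the RFP-negative arrays. Both RFP-positive arrays were lower, by -0.32 (SE 0.23, adjusted p 0.756). A second Efnb2 probe gave 2.83 and 3.09 in RFP-positive cells, against 3.28 and 3.36 in RFP-negative cells, a difference of -0.36. Both probes thus put RFP-positive cells lower. The difference kept its sign under all 13 alternatives, several of which cannot change it, between -0.39 and -0.24. Efnb1 was at 1.38 ± 0.33 in RFP-positive and 1.16 ± 0.45 in RFP-negative cells, and its arrays overlapped. Efnb3 overlapped too, at 1.06 and 1.14 in RFP-positive and 1.53 and 1.12 in RFP-negative cells.

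Ephb4, the receptor of ephrin-B2 and a marker of venous endothelium, lay the other way by the probe used. Its signal was 3.41 and 3.79 on the RFP-positive arrays, against 3.36 and 2.92 on the RFP-negative arrays, a difference of 0.46 (SE 0.29, adjusted p 0.75). The arrays did not overlap, though RFP-positive replicate 1 was only just above RFP-negative replicate 1. The second Ephb4 probe, also well above background on all 4 arrays, gave 2.03 and 1.63 in RFP-positive cells, against 2.19 and 1.85 in RFP-negative cells. Its difference was -0.19 with overlap, so that the 2 probes of Ephb4 disagree in sign. By the probe used, the difference was 0.27 without RFP-positive replicate 2 and 0.24 without RFP-negative replicate 2.

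Because Efnb2 and Ephb4 form a ligand and receptor pair with differences of opposite sign by the probes used, the 250 bases before the start of each gene are shown. Both sequences run 5′ to 3′ on the gene's strand in GRCm38.p6 and come from RefSeq. Capitals mark matches, on either strand and chosen after the sequences were seen, to the GC box GGGCGG, the CCAAT box CCAAT or the TATA box TATAAA, general promoter elements. The Efnb2 window is chr8:8661243-8661492 on the minus strand and the Ephb4 window chr5:137349859-137350108 on the plus strand.
Efnb2: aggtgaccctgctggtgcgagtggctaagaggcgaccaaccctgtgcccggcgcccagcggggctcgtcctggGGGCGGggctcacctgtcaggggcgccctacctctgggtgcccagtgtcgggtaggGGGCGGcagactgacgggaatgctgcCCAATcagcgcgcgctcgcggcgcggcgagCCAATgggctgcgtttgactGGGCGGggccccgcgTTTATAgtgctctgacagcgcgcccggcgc
Ephb4: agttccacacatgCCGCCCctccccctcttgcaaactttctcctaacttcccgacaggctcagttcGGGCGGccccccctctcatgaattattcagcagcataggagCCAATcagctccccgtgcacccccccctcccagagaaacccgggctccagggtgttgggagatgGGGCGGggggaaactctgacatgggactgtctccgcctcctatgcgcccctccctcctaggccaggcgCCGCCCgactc
Efnb2 holds 3 GC boxes, 2 CCAAT boxes and 1 TATA box on the reverse strand, whose first base on the printed strand lies 30 bases before the start. Ephb4 holds 4 GC boxes, 1 CCAAT box and no TATA box.

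The other EphB receptors went both ways. Ephb6, a receptor without kinase activity, was at -1.49 and -0.77 in RFP-positive cells, against -1.51 and -1.94 in RFP-negative cells, a difference of 0.60 (SE 0.35, adjusted p 0.75). RFP-positive replicate 1 was nearly level with RFP-negative replicate 1, and the second Ephb6 probe gave 0.27, also without overlap. The Ephb6 difference was 0.24 on leaving out RFP-positive replicate 2, 0.96 without replicate 1 of that fraction, 0.38 without RFP-negative replicate 2 and 0.29 with normexp background correction. Ephb1, a receptor of ephrin-B ligands, had the largest negative difference of the 39 genes, -1.78 (SE 0.90, adjusted p 0.75). It was at -0.92 and -3.49 on the RFP-positive arrays, against -0.82 and -0.04 on the RFP-negative arrays. RFP-positive replicate 2 alone was far below the others, and without it the difference was -0.49. It was -3.06 without RFP-positive replicate 1 and -0.85 with normexp background correction. Ephb2 was at 1.54 ± 0.71 in RFP-positive and 1.12 ± 0.26 in RFP-negative cells, with overlap.

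Ephb3 and Epha5, receptors of the 2 Eph classes, differed little in size between the fractions. Ephb3 was at 9.15 and 8.97 in RFP-positive cells, against 9.23 and 9.16 in RFP-negative cells, with both RFP-positive arrays lower. Epha5 was at 8.85 and 8.68 in RFP-positive cells, against 8.96 and 8.87 in RFP-negative cells. Both differences were small, -0.14 and -0.15, and their sign turned under quantile normalization, at 0.0069 for Ephb3 and 0.019 for Epha5. The second Epha5 probe was well above background on none of the arrays, so that the 2 Epha5 probes disagree on whether its transcript was measured at all.

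Of the EphA receptors, which mainly bind the lipid-anchored ephrin-A ligands, Epha3 had arrays that did not overlap. It was at -2.61 and -2.67 in RFP-positive cells, against -3.11 and -3.38 in RFP-negative cells, a difference of 0.61 (SE 0.24, adjusted p 0.745). Both gaps within a fraction were smaller than this, but with normexp background correction the Epha3 difference was 0.22. Epha1 lay lower, at -2.17 and -2.91 on the RFP-positive arrays, against -1.62 and -2.11 on the RFP-negative arrays, with a difference of -0.68 (SE 0.36, adjusted p 0.75). RFP-positive replicate 1 was nearly level with RFP-negative replicate 2, and the RFP-positive arrays differed by more than the fractions did. The Epha1 difference was -0.30 on leaving out RFP-positive replicate 2, -1.05 without replicate 1 of that fraction, -0.43 without RFP-negative replicate 1 and -0.29 with normexp background correction.

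Epha2, the receptor best known for its part in tumour vessels, had overlapping arrays, at 3.21 and 2.87 in RFP-positive and 3.08 and 2.81 in RFP-negative cells. The difference was 0.09 (SE 0.26, adjusted p 0.919). Its ligand Efna1 was at 2.08 and 2.04 in RFP-positive cells, against 2.09 and 1.21 in RFP-negative cells. RFP-negative replicate 2 alone was lower, and the difference of 0.41 (SE 0.36, adjusted p 0.783) was -0.03 without RFP-negative replicate 2. Epha7 had 0.39 ± 0.04 in RFP-positive and 0.04 ± 0.28 in RFP-negative cells without overlap, but a second probe gave -0.32 and the 2 disagree in sign. Epha4 overlapped, at -0.42 ± 0.26 in RFP-positive and -0.10 ± 0.52 in RFP-negative cells.

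None of the 5 ephrin-A ligands had arrays that did not overlap by the probe used, and their differences ran from -0.31 for Efna4 to 0.66 for Efna5. For Efna5 the gap between arrays of a fraction exceeded that difference, with -0.50 and 1.05 in RFP-positive cells, against -0.96 and 0.18 in RFP-negative cells. Efna3 differed by -0.03 with the probe used. Its other probe gave -1.40 and -2.97 in RFP-positive cells, against -0.59 and -0.72 in RFP-negative cells, a difference of -1.53 that is not seen with the first. Efna2 differed by 0.19.

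**Figure D2:**
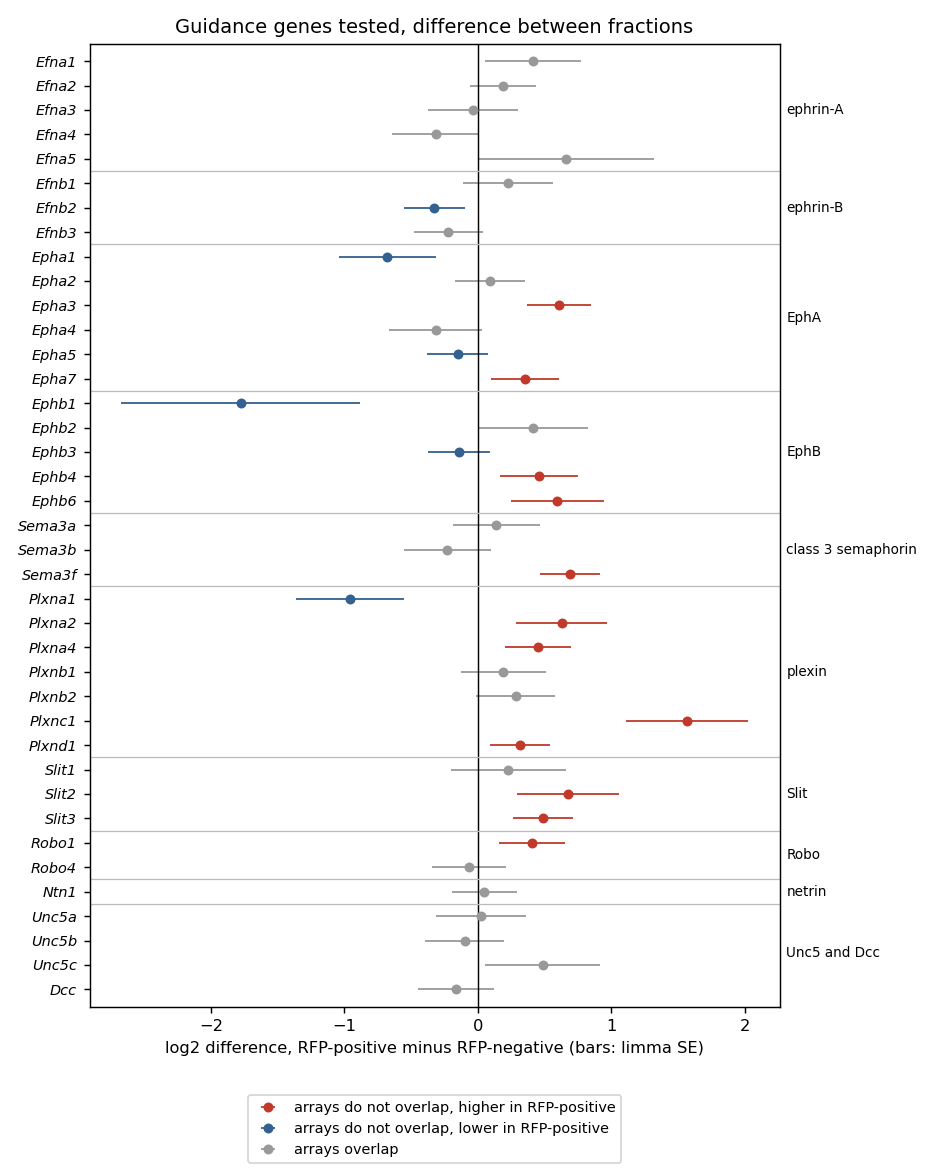
Log2 difference, RFP-positive minus RFP-negative (horizontal axis), of the 39 guidance genes tested, with bars of 1 limma SE, n = 2 arrays per fraction. Plxnc1 at 1.57 and Ephb1 at -1.78 lie farthest from 0, and Ephb1 has the widest bar of the 2.

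Class 3 semaphorins are secreted, and only 3 of 7 could be tested. Sema3f, which signals through neuropilin-2 and repels endothelial cells, was at 1.97 and 2.09 in RFP-positive cells, against 1.34 and 1.34 in RFP-negative cells. Both RFP-positive arrays were higher, by 0.69 (SE 0.22, adjusted p 0.745), or 1.61-fold, and the arrays of each fraction lay close together. The difference stayed between 0.63 and 0.77 under all 13 alternatives, several of which cannot change it. The same array order is seen in 18.8% of all genes. Sema3a, a ligand of neuropilin-1, was at 1.82 and 1.17 in RFP-positive and 1.54 and 1.17 in RFP-negative cells, with a difference of 0.14 (SE 0.33, adjusted p 0.905). Its second probe did not overlap, at -0.42 and -0.18 in RFP-positive cells, against -0.82 and -0.79 in RFP-negative cells. Sema3b overlapped, at -2.21 and -1.59 in RFP-positive and -1.87 and -1.47 in RFP-negative cells.

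Sema3e, the ligand that binds plexin-D1 without a neuropilin, was well above background on none of the arrays, at -6.11 and -4.44 in RFP-positive and -4.91 and -5.29 in RFP-negative cells. Sema3c and Sema3d were well above background on 1 array of each fraction, and Sema3g only on RFP-positive replicate 2, at -3.22. These 4 were not tested.

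Plexins, the receptors of semaphorins, had 6 of 7 tested members with a difference above 0, where 45.2% of all genes had one. Of the 7, 4 did not overlap and were higher (57.1%, beside 18.8% of all genes). Only 1 of the 7 did not overlap and was lower (14.3%, beside 21.6% of all genes). Plxnb3, a plexin outside the 46 genes and named after its values were seen, was also lower without overlap. Its signal was -3.30 and -3.81 in RFP-positive cells, against -3.25 and -3.12 in RFP-negative cells. The Plxnb3 difference was -0.37 (SE 0.28, adjusted p 0.763). Plxnc1, the receptor of the membrane-anchored Sema7a, had the largest positive difference of the 39 genes. It was at -1.40 and -0.42 in RFP-positive cells, against -2.86 and -2.10 in RFP-negative cells, a difference of 1.57 (SE 0.46, adjusted p 0.727), or 2.97-fold. Both RFP-positive arrays were higher, and leaving out 1 array gave between 1.08 and 2.06. The second Plxnc1 probe was at -3.77 and -3.08 in RFP-positive cells, against -3.45 and -3.69 in RFP-negative cells, and differed by 0.15 with overlap. The mean of the 2 probes gave 0.86, and normexp background correction 0.82.

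Plxnd1, the endothelial plexin that receives Sema3e, was at 3.89 and 3.94 in RFP-positive cells, against 3.55 and 3.63 in RFP-negative cells. Its 4 arrays gave a difference of 0.32 (SE 0.22, adjusted p 0.756) without overlap. The second probe gave 0.19 with overlap. Plxnd1 transcript was thus measured on all 4 arrays while that of its ligand Sema3e was not.

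The plexin-A genes, partners of neuropilins in class 3 semaphorin receptors, went both ways. Plxna2 was at 1.27 and 1.23 in RFP-positive cells, against 1.02 and 0.22 in RFP-negative cells, with a difference of 0.63 (SE 0.34, adjusted p 0.75). RFP-negative replicate 2 was far below the others, and without it the difference was 0.23, while without RFP-negative replicate 1 it was 1.03. Plxna1 was at -3.51 and -2.55 in RFP-positive cells, against -1.84 and -2.29 in RFP-negative cells, with a difference of -0.96 (SE 0.41, adjusted p 0.745). The Plxna1 difference was -0.48 on leaving out RFP-positive replicate 1, -1.44 without replicate 2 of that fraction and -0.32 with normexp background correction.

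Plxna4 depended on the probe. The probe used gave -0.78 ± 0.17 in RFP-positive and -1.23 ± 0.15 in RFP-negative cells (n = 2 each). The other probe was well above background on both RFP-negative arrays, at -3.14 and -3.24, and on neither RFP-positive array. By that probe the Plxna4 signal in RFP-negative cells was at least 1.83-fold higher, a bound that gives each RFP-positive array the higher of its own probe signal and its lowest signal well above background. RFP-positive replicate 1 kept its own signal of -3.58, and replicate 2, at -6.41, took that lowest signal, -4.54. Plxna3, with 1 probe, was well above background only on RFP-positive replicate 1 and RFP-negative replicate 2, at -3.11 and -2.33, and was not tested. Plxnb1 and Plxnb2, receptors of class 4 semaphorins, overlapped, with differences of 0.19 and 0.28.

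**Figure D3:**
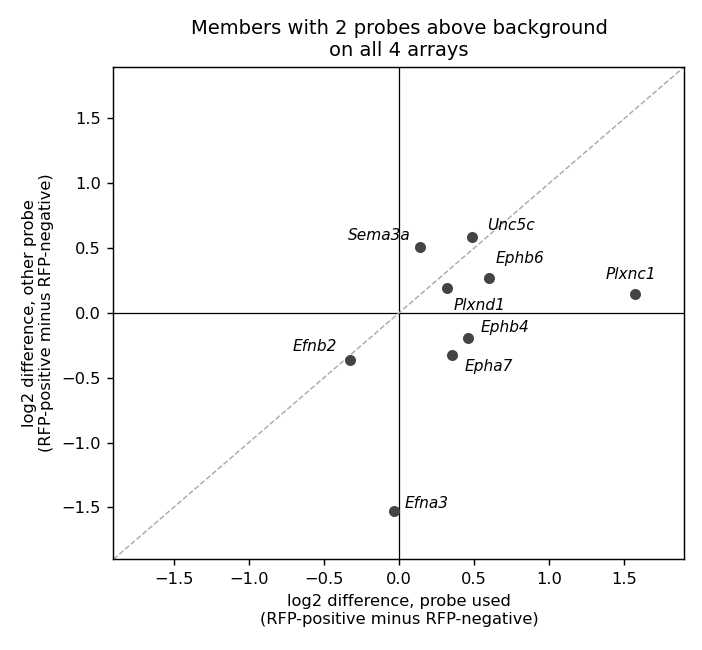
Log2 difference, RFP-positive minus RFP-negative, by the probe used (horizontal axis) and by the other probe (vertical axis), for the 9 guidance genes with 2 probes well above background on all 4 arrays, where the dashed line marks equal values. The sign was the same for 7 genes and opposite for Ephb4 and Epha7, and Plxnc1 and Efna3 lie far from the dashed line.

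Slits are large secreted ligands, and all 3 had a difference above 0, where 45.2% of all genes had one. Slit3 was at 0.29 and 0.22 in RFP-positive cells, against -0.31 and -0.17 in RFP-negative cells. Both RFP-positive arrays were higher, by 0.49 (SE 0.23, adjusted p 0.745), and the gap within each fraction was smaller than that. Slit2 was at -1.15 and -0.32 in RFP-positive cells, against -1.66 and -1.16 in RFP-negative cells, a difference of 0.68 (SE 0.38, adjusted p 0.75). RFP-positive replicate 1 and RFP-negative replicate 2 were almost level for Slit2, and without RFP-positive replicate 2 the difference was 0.27. It was 1.09 without RFP-positive replicate 1 and 0.43 without RFP-negative replicate 1. Slit1 overlapped, with -1.91 and -3.05 in RFP-positive cells, against -2.71 and -2.70 in RFP-negative cells.

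Robo1, a receptor of the Slits, was at 1.07 and 1.27 in RFP-positive cells, against 0.89 and 0.63 in RFP-negative cells. It did not overlap and was higher by 0.41 (SE 0.25, adjusted p 0.75). Under the 13 alternatives, several of which cannot change a difference, that of Robo1 ran from 0.28 to 0.54 and that of Slit3 from 0.35 to 0.57. Robo4, the Robo receptor of endothelium, overlapped, at -0.30 and 0.18 in RFP-positive and -0.10 and 0.10 in RFP-negative cells, a difference of -0.06 (SE 0.28, adjusted p 0.947). Robo2 was well above background only on RFP-positive replicate 2, at -3.62, and was not tested.

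Slit2, Slit3 and Robo1 were picked because their signals were higher on both RFP-positive arrays, an order seen in 18.8% of all genes. Slit1 and Robo4 overlapped, and Robo2 was not tested. For the genes picked, the 250 bases before the start of each are shown in the same way. Their windows are chr5:47982905-47983154, chr11:35121206-35121455 and chr16:72662899-72663148, all on the plus strand of GRCm38.p6, from RefSeq. Capitals again mark the GC, CCAAT and TATA boxes.
Slit2: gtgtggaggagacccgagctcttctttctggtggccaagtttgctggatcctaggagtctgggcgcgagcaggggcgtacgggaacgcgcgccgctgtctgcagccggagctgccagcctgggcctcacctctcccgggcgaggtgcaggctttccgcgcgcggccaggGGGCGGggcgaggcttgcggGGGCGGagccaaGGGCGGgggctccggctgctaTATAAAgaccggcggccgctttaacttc
Slit3: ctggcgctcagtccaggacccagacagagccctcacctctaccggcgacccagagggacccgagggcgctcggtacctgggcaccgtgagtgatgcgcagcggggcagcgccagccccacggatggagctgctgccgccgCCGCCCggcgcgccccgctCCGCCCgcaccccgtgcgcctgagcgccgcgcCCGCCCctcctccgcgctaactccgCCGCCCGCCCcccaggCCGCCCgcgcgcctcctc
Robo1: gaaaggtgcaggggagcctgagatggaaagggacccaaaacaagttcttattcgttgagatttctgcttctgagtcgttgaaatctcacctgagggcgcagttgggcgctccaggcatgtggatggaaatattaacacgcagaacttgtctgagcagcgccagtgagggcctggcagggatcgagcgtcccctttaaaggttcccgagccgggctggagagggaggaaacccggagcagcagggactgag
Slit2 holds 3 GC boxes and a TATA box 28 bases before the start. Slit3 holds 6 GC boxes, all on the reverse strand and 2 of them overlapping each other, and 78.8% of its window is G or C. Robo1 holds none of the 3 elements, with 56% G or C.

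Of the 46 genes, 38 had such a window, 44 windows in all. The GC box stood in 31 of the 44 (70.5%), beside 32.7% of 32851 windows of all genes, and the median share of G and C was 65.2% beside 52.4%. The CCAAT box stood in 25% of the guidance windows and 33.8% of all windows, and the TATA box in 4.55% and 12.4%. Cores bound by factors of vessel and blood development were searched as well, each on both strands. AGGAAG, an Ets core, stood in 34.1% of the guidance windows and 29.5% of all. TGGGAA, the core of the Notch effector RBPJ, stood in 15.9% and 21.6%, the GATA motif AGATAA in 6.82% and 9.99%, and the homeodomain core TAATTA in 4.55% and 4.84%. None of these 4 cores was found in the 5 windows shown.

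The netrin arm had no gene whose arrays did not overlap. Ntn1, the founding netrin, was at -1.77 and -1.50 in RFP-positive and -1.74 and -1.63 in RFP-negative cells, a difference of 0.05 (SE 0.24, adjusted p 0.951). A second Ntn1 probe and the single probe of Ntn4 were well above background on none of the arrays. Unc5b, the netrin receptor of endothelial tip cells, was at 4.11 and 3.50 in RFP-positive and 3.85 and 3.96 in RFP-negative cells, with a difference of -0.10 (SE 0.30, adjusted p 0.924). Unc5c was at -0.45 and 0.51 in RFP-positive cells, against -0.77 and -0.15 in RFP-negative cells, and differed by 0.49, and by 0.59 with its other probe, both with overlap. Without RFP-positive replicate 2 the Unc5c difference was 0.0091, and without RFP-positive replicate 1 it was 0.97. Unc5a differed by 0.02. Dcc, the attractive netrin receptor, differed by -0.16, and 2 further Dcc probes were well above background on none of the arrays.

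The rest of the pathway was read from a list of 65 genes, among them class 4 to 7 semaphorins, neuropilins and cytoplasmic transducers. The list also holds relatives of the 46 genes, such as Epha6, Epha8, Epha10, Plxnb3, Robo3, Unc5d, Ntn3 and Ntn5. Of these, 51 could be tested, and 9 were higher (17.6%) and 11 lower (21.6%) without overlap, beside 18.8% and 21.6% of all genes. None passed an adjusted p of 0.05 in limma's test, and 4 (7.84%) had an unadjusted limma p under 0.05, beside 6.49% of all genes. Their median difference was 0.11. The 39 guidance genes had a larger share on the higher side than these 51, and that difference between the lists was not tested.

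Among the 65, Nrp2, the neuropilin through which Sema3f acts, was at 3.76 and 4.06 in RFP-positive cells, against 3.72 and 3.75 in RFP-negative cells, a difference of 0.18 (SE 0.24, adjusted p 0.839). Nrp1 differed by 0.11 with overlap. Chn2, a GTPase-activating protein for Rac, was at -2.24 and -1.57 in RFP-positive cells, against -3.13 and -2.75 in RFP-negative cells, higher by 1.03 (SE 0.33, adjusted p 0.745). Rnd1, a small GTPase that binds plexins, was at -4.00 and -3.97 in RFP-positive cells, against -3.29 and -2.65 in RFP-negative cells. It entered the test through the RFP-negative arrays, and only 1 RFP-positive array was well above background for it, so no size of the difference is given. Sema7a, the ligand of plexin-C1 and named after its values were seen, was at -2.74 and -2.41 in RFP-positive cells, against -1.68 and -2.32 in RFP-negative cells, a difference of -0.58 (SE 0.32, adjusted p 0.75).

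**Figure D4:**
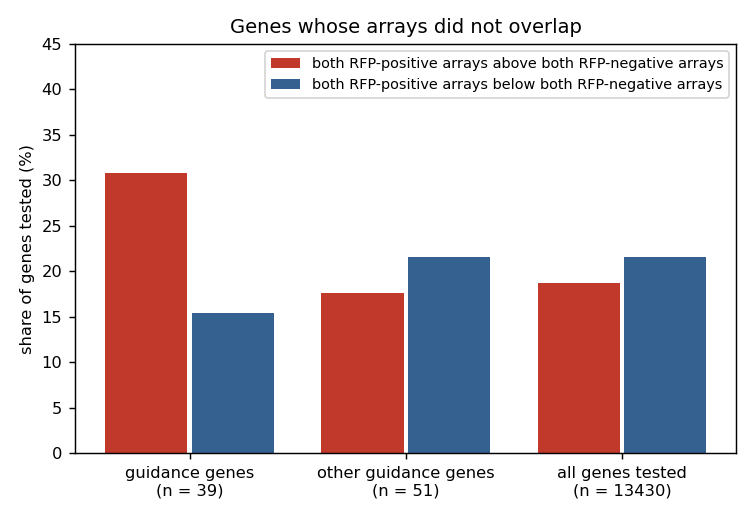
Share of genes tested (vertical axis, %) with both RFP-positive arrays above (red) or below (blue) both RFP-negative arrays, for the 39 guidance genes, the 51 other guidance genes and all 13430 genes. The red bar of the guidance genes stands at 30.8%, against 18.8% for all genes, and their blue bar at 15.4%, against 21.6%.

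Markers of other cells that the sort could hold differed between the fractions as well. Summed over the list, in units of the array's 75th percentile, adipocyte markers were at 21.1 and 15.9 in RFP-positive cells, against 50.4 and 61.5 in RFP-negative cells. All 9 of them were lower without overlap, where 21.6% of all genes were. So were 8 of 10 tested markers of stroma and fibroblasts and 5 of 6 of mural cells. The stromal sums were 58.2 and 46.3 in RFP-positive cells, against 68.9 and 111.8 in RFP-negative cells. The mural sums were 21.9 and 20.3 in RFP-positive cells, against 28.3 and 44.3 in RFP-negative cells. Endothelial markers were higher without overlap for 6 of 10, beside 18.8% of all genes. Their sums were 103.3 and 112.4 in RFP-positive cells, against 94.3 and 89.2 in RFP-negative cells. Cdh5, which defines endothelium, was at 3.76 and 4.70 in RFP-positive cells, against 3.76 and 3.65 in RFP-negative cells, so that RFP-positive replicate 2 alone stood apart. Pecam1, the other defining marker, was at 2.04 and 1.78 in RFP-positive cells, against 1.49 and 1.76 in RFP-negative cells. Tie1 and Emcn lay the other way with overlap, by -0.13 and -0.24.

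Blood markers summed to 5.84 and 4.07 in RFP-positive cells, against 2.84 and 2.83 in RFP-negative cells, with 4 of 7 higher and 1 lower without overlap. As in every list, the brightest probe weighs most in the sum. On RFP-positive replicate 1 that was Hbb-bh1, at 1.92. Hbb-bh1 was at 0.0049 on RFP-positive replicate 2, against 0.57 and 0.44 in RFP-negative cells, with overlap. Of the 4 higher, Myb entered the test through the RFP-positive arrays, and only 1 RFP-negative array was well above background for it. Neural markers summed to 41.5 and 34.5 in RFP-positive cells, against 41.9 and 44.6 in RFP-negative cells, with 1 of 7 higher and 3 lower without overlap. Endoderm and epithelial markers summed to 13.7 and 14.3 in RFP-positive cells, against 14.2 and 28.2 in RFP-negative cells, with 3 of 5 lower without overlap. Beside these counts, all genes tested gave 18.8% higher and 21.6% lower without overlap. The defining markers of every list were well above background on at least 1 array, except the neural marker Pax6, which was so on none. The part of these cell types in the guidance gene differences was not tested. In sorted bulk cells a change in the share of a cell type and a change in RNA per cell cannot be told apart.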

How the data were processed

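Total RNA of sorted cells was measured on 4 one-colour (Cy3) arrays, grouped by the reporter status in the labels. The intensity values are the processed signals deposited for each array, which per the file headers came from version 10.10.1.1 of Agilent's Feature Extraction. The deposited value table holds the same intensities times 1 constant per array, between 5.39 and 6.45, so its direction and lack of centring are known, but the origin of these constants is unknown here. All arrays lay on 1 slide and in 1 scan.

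Control spots (3671 of 62976) and outlier spots (115 to 153 per array) were left out. The log2 signal minus that of the array's 75th percentile was averaged over spots of a probe. Of 55681 probes, 27229 had 1 gene symbol through their RefSeq accession (table of assembly GRCm38), 0 several and 28452 none. Each gene was read by its probe of highest mean. The test took the 13430 genes whose probe had a value on every array and was well above background throughout at least 1 fraction. Differences were tested two-sided with lmFit and eBayes of limma 3.58.1 (R 4.3.3), with 2 residual and 2.77 prior degrees of freedom. The fit was tested on simulated data. Python 3.11.15 and matplotlib 3.10.9 were used for the rest. The precision is limited by 2 arrays per fraction.

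Values on all arrays are given for the 9 tested members without overlap and with a difference of at least 0.5, and for 12 members known in vessels. Of the other guidance genes, Nrp1, Nrp2 and those without overlap and with a difference of at least 1 are named. Sema7a, Neo1, Ntn3 and Plxnb3 were added after their values were seen. A few further values are given to show how probes or arrays disagree. The members and lists were chosen with earlier results of these data known. The alternatives were other scalings, normexp (median signals, offset 50), the value table, other filters, averaging over probes, a robust eBayes with trend, a replicate block, and each array left out.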

Additional observations from a re-analysis of the deposited data

How the results depend on the processing

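With 2 arrays per fraction and all arrays on 1 slide, precision is low and a slide or scan effect could not be examined. No gene passed an adjusted p of 0.05 in limma's test under any of the 13 alternatives, and the smallest adjusted p of any gene ran from 0.0787 to 0.998. Of the 39 members tested, 19 kept their sign under all 13 alternatives, 14 turned only on leaving out an array and 6 under another alternative. The value table, the other filters, the robust eBayes with trend and the replicate block cannot change a gene's difference. Averaging over probes cannot change it for a gene with 1 probe, so that part of this stability was fixed in advance. The cause of the turns was not tested.

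The members' median difference was 0.28 with scaling to the median, which moved the median of all genes to 0.03, against -0.05 in the values reported, and that of the other guidance genes was 0.20. Leaving out 1 array gave a members' median of 0.10 to 0.25, 26 to 31 members without overlap (66.7% to 79.5%, where all genes gave 65.3% to 81.3%), 1 to 2 members at least 2-fold in every pair (2.56% to 5.13%, where all genes gave 2.85% to 10.95%), and a median of -0.015 to 0.14 for the other guidance genes. Quantile normalization turned Epha5 to 0.019 and Ephb3 to 0.0069. Scaling to the median turned Efna3 to 0.049 and Robo4 to 0.021. Normexp turned Efna3 to 0.00073 and Epha5 to 0.036. The mean of a gene's probes turned Epha5 to 0.24, Plxna4 to -0.68 and Ntn1 to -0.047.

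Leaving out 1 array gave ranges that include both signs for 17 members. They ran from -0.41 to 0.089 for Dcc, -0.025 to 0.85 for Efna1, -0.32 to 0.25 for Efna3, -0.11 to 1.44 for Efna5, -0.091 to 0.54 for Efnb1, -0.077 to 0.27 for Epha2, -0.68 to 0.052 for Epha4, -0.084 to 0.92 for Ephb2 and -0.085 to 0.19 for Ntn1. They ran from -0.089 to 0.48 for Plxnb1, -0.029 to 0.60 for Plxnb2, -0.30 to 0.18 for Robo4, -0.18 to 0.46 for Sema3a, -0.54 to 0.086 for Sema3b, -0.34 to 0.80 for Slit1, -0.28 to 0.33 for Unc5a and -0.40 to 0.21 for Unc5b.

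The replicate numbers are shared between fractions, and the deviations of same-numbered arrays correlated at 0.0922 across genes. The labels do not say whether same-numbered arrays came from the same culture or sort, and this correlation cannot decide it. With the number as a replicate block, 0 genes passed an adjusted p of 0.05 and 1039 had an unadjusted limma p under 0.05, against 872 without it. The members' median difference stayed 0.19.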
